A study of Mus musculus with 8 samples.

Results

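The Nkx2 and Nkx6 ventral homeobox genes are 6 mouse genes, Nkx2-1, Nkx2-2, Nkx2-4, Nkx2-9, Nkx6-1 and Nkx6-2, chosen by name out of 18193 genes measured. Every probe set that the platform annotation assigns to a member alone was kept, which gave 7 probe sets of the 45037 tested, 2 for Nkx2-4 and 1 for each other gene. RNA came from mouse embryoid bodies, aggregates of differentiating embryonic stem cells. The stem cell line, YFP3.1, carried a constitutively expressed FLAG-tagged Gli1, a transcription factor at the end of the Hedgehog (Hh) pathway, so that both groups held the tagged Gli1. The 4 agonist samples (replicates 5 to 8) received 500 nM retinoic acid and 1 uM of the Hh agonist HH-Ag, which switches the pathway on, after 2 days in suspension. The 4 samples with retinoic acid alone (replicates 1 to 4) received 500 nM retinoic acid at the same point. Collection was labelled as 3 days of differentiation for 7 samples, and agonist replicate 7 had no label for the day or the line. The labels do not say whether the samples of a group came from separate cultures, so the p-values rest on the variation among these 8 samples, which may be technical.

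Nkx factors are homeodomain proteins that divide the ventral neural tube into progenitor domains. Hh protein from the notochord and floor plate switches them on in progenitors near the ventral midline, and they act mostly as repressors, with Groucho co-repressors, keeping out factors of neighbouring domains such as Pax6, Dbx1 and Dbx2. Nkx2-2 and Nkx2-9 mark the most ventral progenitor domain below the motor neuron progenitors and, in the hindbrain, progenitors of visceral motor neurons. Nkx6-1 spans several ventral domains including that of motor neurons, and Nkx6-2 overlaps with it. Nkx2-1 and Nkx2-4 belong to the ventral forebrain and the thyroid, and Nkx2-1 also to the lung, and neither is typical of hindbrain or spinal cord.

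All 6 genes lie on the minus strand in GRCm38.p6, the build of the RefSeq gene table, and 4 of them form 2 pairs. Nkx2-1 (chr12:56531935-56536908) and Nkx2-9 (chr12:56611389-56613569) are 74.5 kb apart. Nkx2-4 (chr2:147083337-147085439) and Nkx2-2 (chr2:147176485-147195434) are 91.0 kb apart. Nkx6-1 lies at chr5:101659184-101664711 and Nkx6-2 at chr7:139579376-139582797. Nkx6-2 overlaps Inpp5a, a gene on the opposite strand, by 277 bases, and the spans of the opposite-strand long non-coding RNAs Nkx2-2os and Gm26973 overlap Nkx2-2 by 11352 bases and Nkx2-9 over its whole 2181 bases.

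The promoter windows of RefSeq, 250 bases before to 50 after the start site of 1 transcript in GRCm38.p6, were found for all 6 genes. They are shown 5′ to 3′ for the 2 genes that rose and for Nkx2-2, the domain partner of Nkx2-9. Capitals mark every match to 4 motifs searched on both strands, namely the Gli consensus GACCACCCA, its shorter core CCACCCA, which lies within that consensus, the NK2-class site TNAAGTG and the Nkx6-class site TTAATTA.
Nkx2-9, chr12:56613235-56613534, minus strand: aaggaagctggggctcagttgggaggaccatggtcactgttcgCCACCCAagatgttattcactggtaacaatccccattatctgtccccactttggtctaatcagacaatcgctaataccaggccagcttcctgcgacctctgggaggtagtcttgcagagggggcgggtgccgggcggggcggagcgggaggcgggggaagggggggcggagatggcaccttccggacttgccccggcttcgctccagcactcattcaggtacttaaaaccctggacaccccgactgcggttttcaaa
Nkx6-1, chr5:101664662-101664961, minus strand: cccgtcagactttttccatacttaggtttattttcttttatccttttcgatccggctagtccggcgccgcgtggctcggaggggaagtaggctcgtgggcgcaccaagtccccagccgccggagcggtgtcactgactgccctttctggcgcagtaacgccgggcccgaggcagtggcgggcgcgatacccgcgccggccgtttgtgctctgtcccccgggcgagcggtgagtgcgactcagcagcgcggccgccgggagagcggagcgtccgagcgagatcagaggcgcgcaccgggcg
Nkx2-2, chr2:147186353-147186652, minus strand: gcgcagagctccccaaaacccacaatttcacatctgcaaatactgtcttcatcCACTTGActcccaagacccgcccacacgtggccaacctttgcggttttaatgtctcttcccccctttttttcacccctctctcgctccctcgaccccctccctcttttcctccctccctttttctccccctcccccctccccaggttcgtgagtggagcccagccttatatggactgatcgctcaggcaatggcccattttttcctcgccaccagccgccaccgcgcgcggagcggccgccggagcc
The Nkx2-9 window held 1 match to the Gli core, from 207 to 201 bases before the start site, and none to the full consensus. The core was present in 9.3% of 32851 promoter windows and the full consensus in 0.253%. The Nkx2-2 window held 1 NK2-class site, on the opposite strand, a motif found in 11.5% of windows. None of the other 4 members' windows held any of the 4 motifs, and the Nkx6-class site occurred in 3.07% of all windows. A match is a description of these letters, and enhancers lie outside these windows.

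Each array gave 1 linear intensity per probe set. Each array's median intensity was 21.6 to 22.6, and the number of arrays, 4 a group, limits the precision. The neural progenitor genes Sox2, Sox3 and Nes were above the 40th percentile of all probe sets, an intensity of about 15.1 that serves here as a mark of dim signal, while Sox1 was not. On the first principal component over all probe sets, which held 21.7% of the variance, agonist arrays lay at 0.024 to 24.9 and retinoic acid arrays at -35.9 to -0.83, so that agonist replicate 7 and retinoic acid replicate 3 lay next to each other. Hybridisation took place on 2 days, each with its own chip lot, so day and lot cannot be told apart. The first day held agonist replicate 5 and retinoic acid replicate 1, both on fluidics station 1. On the second day the agonist arrays ran on station 2 and the retinoic acid arrays on station 1, so station and group cannot be told apart on that day.

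The comparison asks how Nkx2 and Nkx6 genes respond to Hh stimulation on top of retinoic acid. With the agonist Nkx2-9 and Nkx6-1 rose, and the other 5 probe sets, for Nkx2-1, Nkx2-2, Nkx2-4 and Nkx6-2, did not pass the test. The test was limma on log2(intensity + 16) over all 45037 probe sets, with Benjamini-Hochberg adjusted p under 0.05, and all adjusted p-values below come from it. In all, 1.04% of probe sets were called, 0.653% higher and 0.391% lower with the agonist. Of the 7 member probe sets 2 were called higher and 0 lower, and at an unadjusted p under 0.05 these counts were 3 and 0, against 4.55% of all probe sets higher and 5.09% lower. The median log2 fold change was 0.18 over the 7 and 0.00049 over all probe sets. The members, and the gene lists below, were chosen with earlier results of these data known, so these counts and shares are a description.

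**Figure D1:**
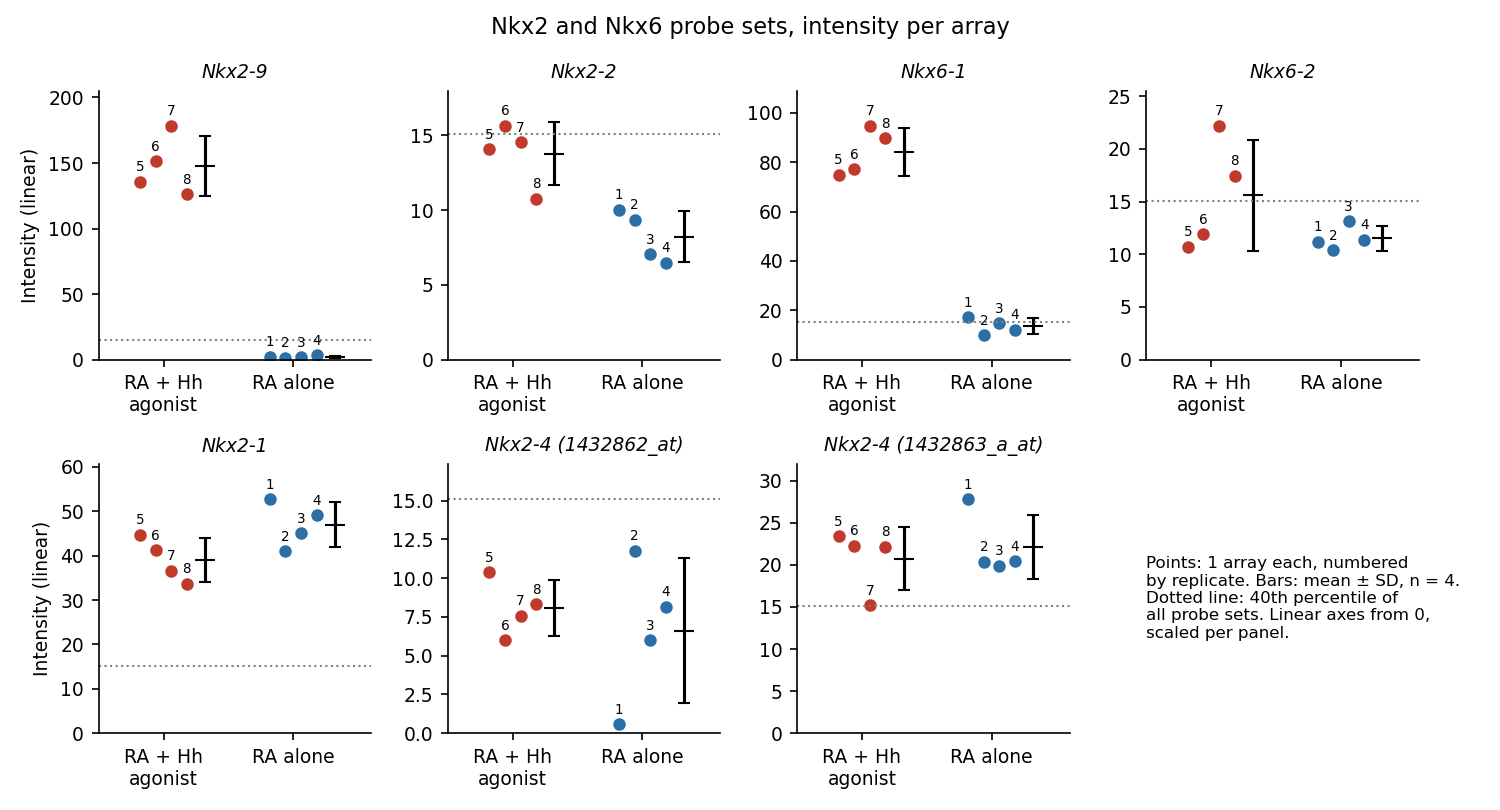
Linear intensity (y axis, from 0, scaled per panel) of the 7 member probe sets in the 4 agonist arrays (red) and the 4 arrays with retinoic acid alone (blue), numbered by replicate, with mean ± SD. The groups lie apart for Nkx2-9, Nkx6-1 and Nkx2-2, but for Nkx2-2 3 of the 4 agonist arrays and all 4 retinoic acid arrays are under the dotted line at 15.1.

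Nkx2-9 had intensities of 136, 151, 179 and 126 in agonist replicates 5 to 8, against 2.30, 1.51, 1.89 and 3.40 in retinoic acid replicates 1 to 4. Every agonist array was far above every retinoic acid array, and all 4 retinoic acid arrays were under 15.1. Means were 148 ± 22.9 with the agonist and 2.28 ± 0.815 with retinoic acid alone (SD, n = 4 each). On log2(intensity + 16) the change was 3.16 (SE 0.12, 95% interval 2.90 to 3.41, adjusted p = 4.36e-13), a log2 fold change equal to 8.91-fold. Its size depends on what is added before the logarithm, being 5.53 with 1 added and 1.67 with 64 added, and the ratio of the mean intensities was 65.0. Set against the dim mark of 15.1 in place of the measured retinoic acid values, the agonist mean was 9.79-fold higher.

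Nkx6-1 had intensities of 74.98, 77.1, 94.9 and 89.7 in agonist replicates 5 to 8, against 17.2, 9.80, 14.8 and 12.1 in retinoic acid replicates 1 to 4. The groups did not overlap, and 3 of the 4 retinoic acid arrays were under 15.1. Its log2 fold change was 1.77 (SE 0.12, 95% interval 1.51 to 2.02, adjusted p = 6.20e-09), a 3.40-fold change on this scale, with 2.58 when 1 was added and 0.93 when 64 was added. The ratio of the mean intensities was 6.25. In bulk samples like these, more cells that express a gene and more of its RNA per cell cannot be told apart.

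Nkx2-9 and Nkx6-1 were both highest in agonist replicate 7, the agonist array nearest to the retinoic acid group on the first principal component. Their log2 fold changes stayed between 3.07 and 3.22 for Nkx2-9 and between 1.70 and 1.83 for Nkx6-1 when any 1 array was left out. On the first hybridisation day, with 1 array a group and no test, the differences were 3.05 and 1.45, and on the second day 3.19 and 1.87 (adjusted p = 7.33e-11 and 1.06e-07). With fluidics station 1 alone, which holds 1 agonist array and 4 retinoic acid arrays and was set up after seeing the data, they were 3.05 and 1.63 (adjusted p = 2.09e-06 and 0.00207). Tests on station 1 take their spread from the retinoic acid arrays alone and assume that the lone agonist array varies like them, here and below.

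Nkx2-2 had intensities of 14.1, 15.6, 14.5 and 10.7 in agonist replicates 5 to 8, against 10.02, 9.36, 7.04 and 6.49 in retinoic acid replicates 1 to 4. The groups did not overlap, the lowest agonist array being next to the highest retinoic acid array, and 7 of the 8 values were under 15.1. The log2 fold change of 0.30 (SE 0.14) did not pass (adjusted p = 0.497), and its 95% interval ran from 0.0092 to 0.58, or 1.01-fold to 1.50-fold. An exact permutation test on this probe set alone, two-sided, gave p = 0.0286, the smallest that 4 against 4 arrays allow. Groups that do not overlap always give this value, so it adds no support beyond the lack of overlap. It was not adjusted for the 7 member probe sets. Groups did not overlap for 3 of the 7 member probe sets, all higher with the agonist, and for 5.6% of all probe sets (2.87% higher and 2.73% lower with the agonist). Of the 18015 probe sets at or under the 40th percentile, groups did not overlap for 3.41%, and limma called 0.0777%. The ratio of the mean intensities was 1.67, so the adjusted test left a change of this size unresolved.

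Nkx6-2 had intensities of 10.7, 11.9, 22.2 and 17.5 in agonist replicates 5 to 8, against 11.2, 10.4, 13.1 and 11.4 in retinoic acid replicates 1 to 4. Only agonist replicates 7 and 8 lay above all retinoic acid arrays, and the groups overlapped. For Nkx6-2 the log2 fold change was 0.18 (SE 0.15, 95% interval -0.12 to 0.49, adjusted p = 0.770), and it was 0.088 without agonist replicate 7 and -0.041 on fluidics station 1 alone. Its close relative Nkx6-1 exceeded it in the size of the response by 1.58 on the log2 scale.

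Neither forebrain and thyroid member passed the test. Nkx2-1 had intensities of 44.7, 41.2, 36.7 and 33.6 in agonist replicates 5 to 8, against 52.7, 41.1, 45.0 and 49.1 in retinoic acid replicates 1 to 4. Agonist replicates 7 and 8 were below every retinoic acid array, while agonist replicates 5 and 6 fell within the range of that group. The log2 fold change of -0.19 (SE 0.11) did not pass (adjusted p = 0.647). Its 95% interval ran from -0.43 to 0.044, or 0.741-fold to 1.03-fold on the scale of the test. That interval is not adjusted for the number of probe sets and describes measured signal, so it sets no bound on a change in Nkx2-1 RNA. All 8 values were above 15.1, although no detection calls were used, so whether this signal is Nkx2-1 RNA or unspecific hybridisation was not tested.

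Nkx2-4 was measured by a pair of probe sets designed from the same sequence record. The brighter one had 23.4, 22.3, 15.2 and 22.1 with the agonist in replicates 5 to 8, against 27.8, 20.4, 19.9 and 20.4 in retinoic acid replicates 1 to 4 (log2 fold change -0.054, SE 0.14, adjusted p = 0.951). Agonist replicate 7 was the lowest array and retinoic acid replicate 1 the highest, and the other 6 lay between 19.9 and 23.4. The dimmer one had 10.4, 6.01, 7.58 and 8.33 with the agonist, against 0.58, 11.8, 5.98 and 8.16 with retinoic acid alone (log2 fold change 0.11, SE 0.16, adjusted p = 0.895). All of its values were under 15.1, and the sign of the change turned on both probe sets without retinoic acid replicate 1, to -0.030 for the dimmer and 0.014 for the brighter one.

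**Figure D2:**
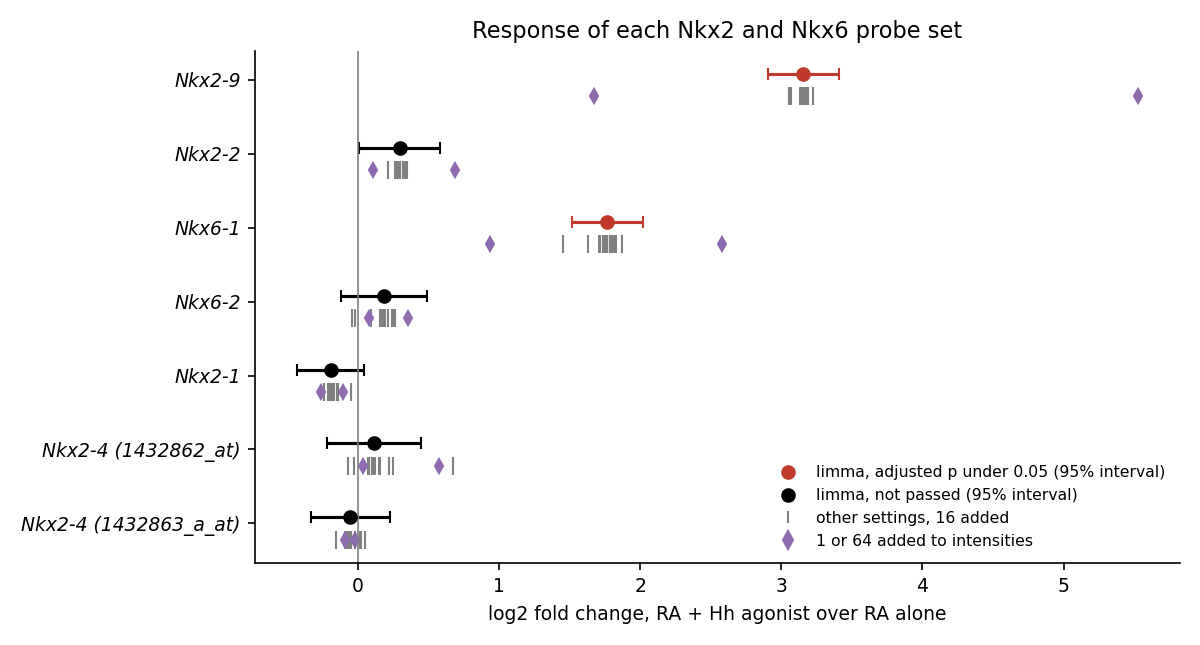
The log2 fold change of each member probe set (x axis, agonist over retinoic acid alone) with its 95% interval from limma, red where the adjusted p was under 0.05. Grey ticks are the other settings and diamonds the settings that add 1 or 64 to the intensities; Nkx2-9 and Nkx6-1 stay at 0.93 or above in each, and all marks of the other 5 probe sets lie left of those.

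The sizes of these responses are set side by side as a description, with no test, since Nkx2-9 and Nkx6-1 were picked as the members that rose. The change of Nkx2-9 was larger than that of Nkx2-1, its neighbour on chromosome 12, by 3.35 (SE 0.13) on the log2 scale, and larger than that of Nkx2-2 by 2.86 (SE 0.10). The gap between Nkx2-9 and Nkx6-1 was 1.39 (SE 0.13), and it moves with the added constant, to 2.95 with 1 added and 0.74 with 64 added, because the retinoic acid values of Nkx2-9 are dim. The change of Nkx6-1 was larger than that of Nkx2-2 by 1.47 (SE 0.13) and than that of Nkx2-1 by 1.96 (SE 0.14). Probe sets differ in how they respond to the same change of RNA, so these differences are of measured signal.

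The nearest measured protein-coding genes around the members, other than the members themselves, did not pass. On chromosome 12, Mbip, which lies 186.0 kb from Nkx2-1 and encodes a protein of chromatin complexes, had 648 ± 46.4 with the agonist and 620 ± 47.3 with retinoic acid alone. Pax9, a paired-box gene of pharyngeal pouches and sclerotome 78.1 kb from Nkx2-9, had 39.1 ± 5.58 with the agonist and 41.2 ± 1.79 with retinoic acid alone (adjusted p = 0.932). On chromosome 2, the exonuclease gene Xrn2, 5.3 kb from Nkx2-4, had 650 ± 14.4 with the agonist and 619 ± 56.8 with retinoic acid alone, and Pax1, a sclerotome gene 166.5 kb from Nkx2-2, had 68.3 ± 6.04 with the agonist and 58.9 ± 20.5 with retinoic acid alone. The adjusted p-values of Mbip, Xrn2 and Pax1 were 0.824, 0.777 and 0.737. For Gpat3 and Cds1, which lie 760.1 and 100.4 kb from Nkx6-1, they were 0.870 and 0.907. For Inpp5a, which overlaps Nkx6-2, and Adgra1, 251.3 kb from Nkx6-2, they were 0.619 and 0.324.

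**Figure D3:**
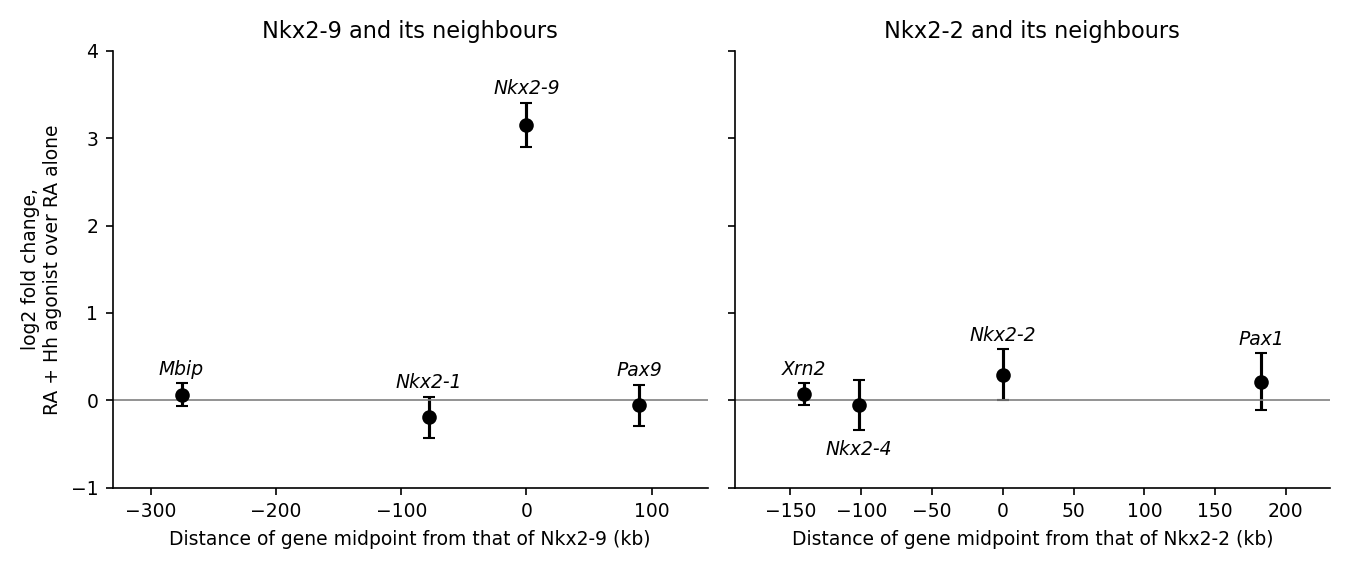
The log2 fold change with its 95% interval (y axis, agonist over retinoic acid alone) of the genes around Nkx2-9 (left) and Nkx2-2 (right), by distance in kb (x axis). Of the 8 genes drawn Nkx2-9 alone passed the test, at 3.16, and Nkx2-1 beside it lies at -0.19.

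Of the other Nkx genes, none was called. The list had 8 genes, of which 6 were measured, with 0 called by limma and 1 at an unadjusted p under 0.05, and a median log2 fold change of 0.11. Called genes made up 1.5% of all 18193 genes by their brightest probe set, 0.934% higher and 0.561% lower with the agonist, with a median change of -0.0036. At an unadjusted p under 0.05 these shares were 5.4% higher and 6.55% lower. Nkx2-6, known from the pharynx and heart, had 129 ± 12.4 with the agonist and 111 ± 8.30 with retinoic acid alone (adjusted p = 0.485). Nkx2-5, a heart gene, had 39.0 ± 9.46 with the agonist and 35.1 ± 8.64 with retinoic acid alone, and Nkx1-2, a gene of the caudal neural plate and tail bud, had 84.6 ± 8.80 with the agonist and 77.8 ± 20.6 with retinoic acid alone. Nkx3-2 and Nkx6-3 averaged below the dim mark in both groups.

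Ventral partners were higher with the agonist in 4 of 10 measured genes and lower in 0, with a median log2 fold change of 0.15, and these counts were the same at an unadjusted p under 0.05. On the second hybridisation day alone 4 were called and on fluidics station 1 alone 3. Foxa2, which specifies the floor plate, had 363, 447, 414 and 369 with the agonist in replicates 5 to 8, against 55.7, 56.9, 53.6 and 54.1 in retinoic acid replicates 1 to 4, groups far apart with a change of 2.54 (SE 0.081, adjusted p = 3.72e-14). Olig2, which shares the motor neuron progenitor domain with Nkx6-1, had 135, 103, 118 and 107 with the agonist in replicates 5 to 8, against 34.5, 24.9, 29.4 and 25.0 in retinoic acid replicates 1 to 4, and Olig1 changed by 1.50. Ptch1, the Hh receptor and a direct target, changed by 0.80 (adjusted p = 7.05e-05), with 0.67 on fluidics station 1 alone, where it was not called (adjusted p = 0.106). Shh, the Hh ligand of notochord and floor plate, had 38.4 ± 8.26 with the agonist and 35.1 ± 8.24 with retinoic acid alone (adjusted p = 0.905), and Foxa1, a relative of Foxa2, 45.1 ± 9.58 with the agonist and 45.4 ± 6.81 with retinoic acid alone (adjusted p = 0.989). Gli1, itself an Hh target and carried as a tagged copy by both groups, had 21.2 ± 3.72 with the agonist and 19.2 ± 1.24 with retinoic acid alone (adjusted p = 0.922). The Gli1 signal lay at percentile 48.5 of all probe sets, close to the dim mark. Sim1, a gene of neurons that arise from the Nkx2-2 domain, had 98.8 ± 12.2 with the agonist and 86.6 ± 9.74 with retinoic acid alone (adjusted p = 0.671).

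Among genes that Nkx factors are known to keep out of ventral domains, or that belong to more dorsal ones, 3 of 13 measured fell and 0 rose, with a median log2 fold change of -0.18. At an unadjusted p under 0.05 these counts were 5 and 0, and 3 were called on the second hybridisation day alone and 2 on fluidics station 1 alone. Dbx1, which marks progenitors dorsal to the Nkx6-1 domain, had 4.11, 7.70, 8.68 and 13.9 with the agonist in replicates 5 to 8, against 148, 167, 173 and 188 with retinoic acid alone in replicates 1 to 4. The Dbx1 groups lay far apart in the opposite order to Nkx2-9, and its change was -2.92 (SE 0.12, adjusted p = 1.74e-12). Pax6, which shares a boundary with Nkx2-2 through mutual repression, had 13.7, 10.3, 7.26 and 15.3 with the agonist, against 37.7, 38.3, 39.4 and 49.8 with retinoic acid alone, a change of -1.06 (adjusted p = 8.25e-05). On fluidics station 1 alone the Pax6 change was -0.95 and was not called (adjusted p = 0.0925). Irx3, a gene of more dorsal progenitors, fell by 1.39. Its relative Irx5 had 66.6 ± 9.69 with the agonist and 80.9 ± 6.58 with retinoic acid alone (adjusted p = 0.458), Msx2, a dorsal midline gene, had 26.6 ± 4.08 with the agonist and 45.9 ± 11.8 with retinoic acid alone with groups that did not overlap (adjusted p = 0.0838, and 0.0293 without retinoic acid replicate 1), and Dbx2 was dim in both groups at 3.49 ± 2.29 with the agonist and 7.06 ± 4.66 with retinoic acid alone.

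Of the genes of neurons that leave the Nkx domains 4 of 19 measured rose and 0 fell, with a median log2 fold change of 0.096, against 6 higher and 1 lower at an unadjusted p under 0.05. On the second hybridisation day alone 4 were called and on fluidics station 1 alone 3. Phox2a, a homeobox gene of hindbrain visceral and other cranial motor neurons, had 51.8, 46.5, 51.1 and 30.8 with the agonist in replicates 5 to 8, against 4.20, 10.7, 8.13 and 13.3 with retinoic acid alone in replicates 1 to 4. The Phox2a groups did not overlap, and the change was 1.28 (SE 0.15, adjusted p = 2.72e-05). Isl1, a gene of all motor neurons at birth, changed by 2.04 and the proneural genes Neurod4 and Neurog2 by 2.07 and 0.93. On fluidics station 1 alone the Neurog2 change was 0.84 and was not called (adjusted p = 0.0942). Of the other motor neuron genes, Mnx1 had 18.1 ± 4.08 with the agonist and 18.6 ± 4.32 with retinoic acid alone, Isl2 had 111 ± 5.59 with the agonist and 113 ± 4.05 with retinoic acid alone, and Lhx3 had 33.0 ± 2.08 with the agonist and 30.8 ± 2.51 with retinoic acid alone. Their adjusted p-values were 0.985, 0.968 and 0.921, and the groups overlapped for all 3. Lhx4, a motor neuron gene, had 19.0 ± 1.47 with the agonist and 10.2 ± 3.20 with retinoic acid alone with groups that did not overlap (adjusted p = 0.218), and Slc18a3, the vesicular acetylcholine transporter, had 15.2 ± 2.79 with the agonist and 7.47 ± 3.11 with retinoic acid alone, also without overlap (adjusted p = 0.289). Neurog1, another proneural gene, had 11.9 ± 3.76 with the agonist and 22.3 ± 3.32 with retinoic acid alone, lower with the agonist in groups that did not overlap (adjusted p = 0.185). Gata2 and Gata3, genes of ventral interneurons, had adjusted p-values of 0.737 and 0.948.

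Of 11 co-repressor genes Tle5 rose and none fell, with a median of -0.064 (2 higher and 2 lower at an unadjusted p under 0.05). Tle5, a short Groucho-family protein that lacks the repeats through which the others bind, had 287, 312, 319 and 325 with the agonist in replicates 5 to 8, against 226, 271, 260 and 239 in retinoic acid replicates 1 to 4. Its change was 0.31 (adjusted p = 0.0346). The call was lost without retinoic acid replicate 1 or 4, without agonist replicate 6, 7 or 8 (changes of 0.26 to 0.30, adjusted p from 0.0768 to 0.154 over these 5). It was also lost with arrays centred on their median (0.29, adjusted p = 0.0533), without an intensity trend (0.31, adjusted p = 0.378) and on the second hybridisation day alone (0.30, adjusted p = 0.129). On station 1 alone the change was 0.20 (adjusted p = 0.745). Tle3 had 118 ± 15.95 with the agonist and 96.1 ± 4.68 with retinoic acid alone (adjusted p = 0.336) and Tle4 8.46 ± 3.98 with the agonist and 19.0 ± 6.07 with retinoic acid alone (adjusted p = 0.194), and the groups overlapped for neither.

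**Figure D4:**
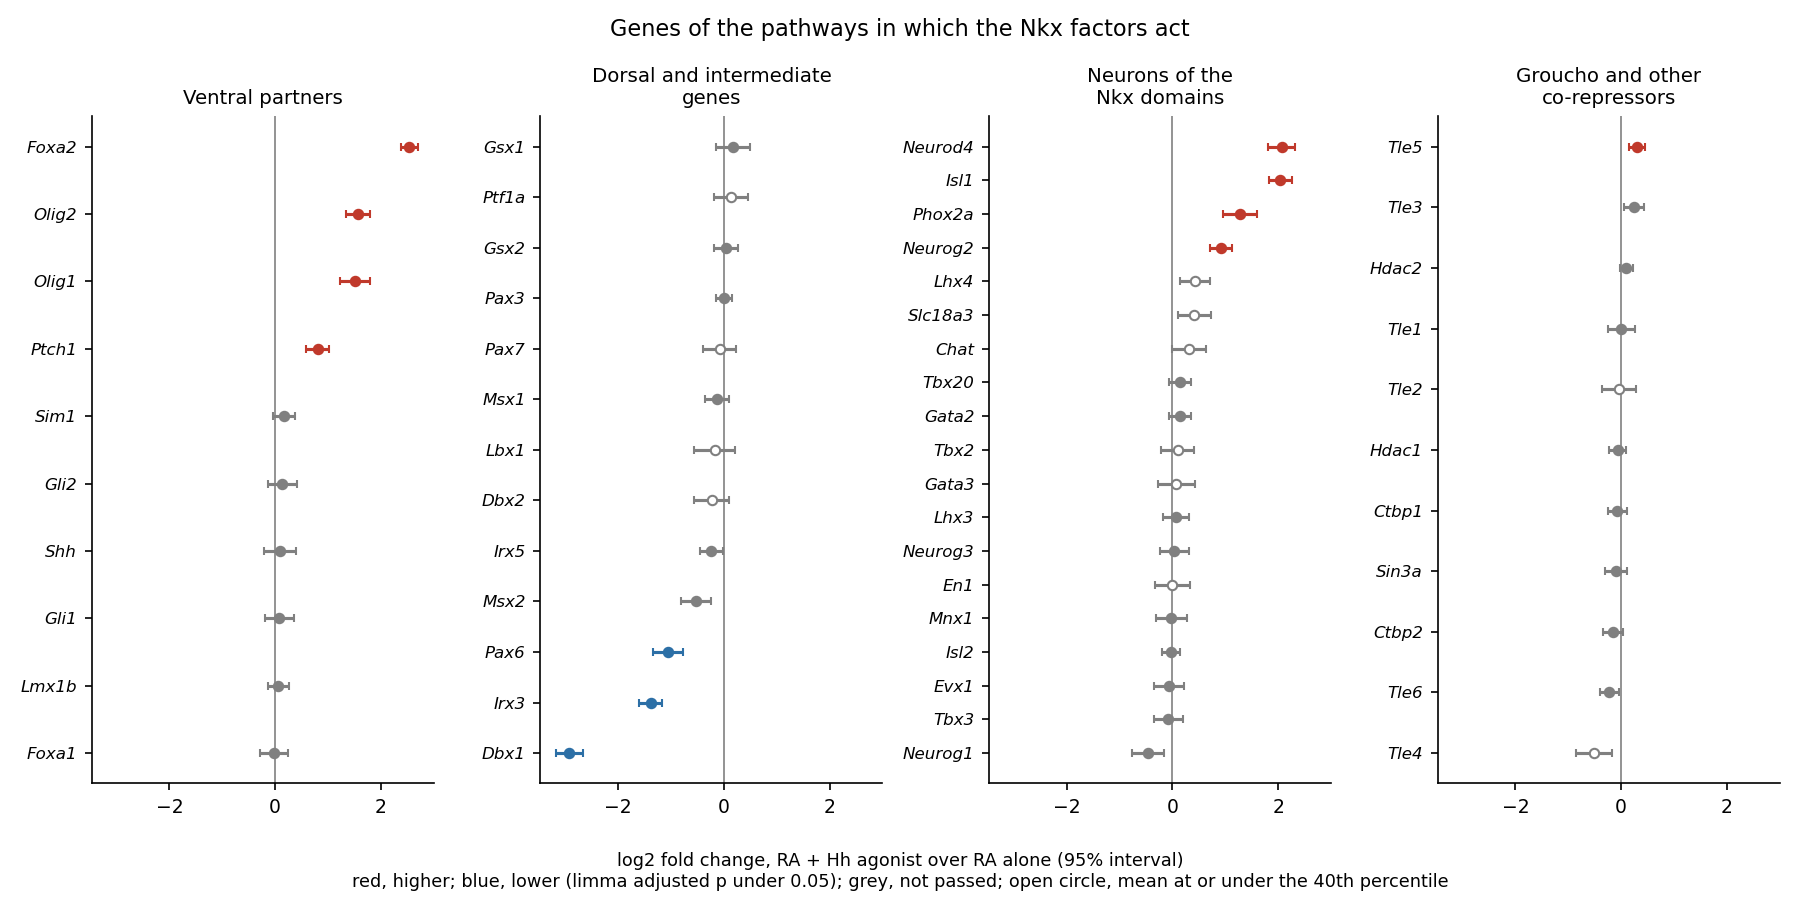
The log2 fold change with its 95% interval (x axis, agonist over retinoic acid alone) of each measured gene in 4 lists, by its brightest probe set, red for higher, blue for lower and grey for not passed in limma. Foxa2, Olig2, Olig1 and Ptch1 lie right of 0 in the first panel, Dbx1, Irx3 and Pax6 left of it in the second, and Neurod4, Isl1, Phox2a and Neurog2 right of it in the third.

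No gene in the marker lists drawn up for other tissues and cell types in which Nkx genes are active passed the test. These lists leave out genes already counted above, among them Foxa2, Olig1, Olig2 and Isl1, which were called higher. Of 17 measured ventral forebrain, thyroid and lung markers, where Nkx2-1 and Nkx2-4 are at home, 0 were called by limma and 1 was higher at an unadjusted p under 0.05. The median change of that list was 0.00042, 10 of the 17 were above the dim mark, and the summed intensity of the 17 was 751 to 838 in agonist arrays and 767 to 815 in retinoic acid arrays. Of 10 pancreas and gut endoderm markers 0 were called and 1 was lower at an unadjusted p under 0.05, with sums of 264 to 309 in agonist arrays and 256 to 278 in retinoic acid arrays, and Pdx1, the defining pancreas gene, was dim at 9.87 ± 2.67 with the agonist and 12.6 ± 6.48 with retinoic acid alone. Of 9 oligodendrocyte markers 0 were called and 0 had an unadjusted p under 0.05, with sums of 368 to 427 in agonist arrays and 379 to 421 in retinoic acid arrays. The thyroid hormone precursor gene Tg was dim in both groups at 12.2 ± 4.19 with the agonist and 12.1 ± 4.17 with retinoic acid alone.

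For each member probe set above the 40th percentile the 3 genes with the highest Pearson's r over the 8 arrays were taken, as a description. For Nkx2-9 they were the floor plate gene Spon1 (r = 0.999), the neurofilament gene Nefl (0.998) and the prion protein gene Prnp (0.998). Prnp had 225 ± 12.7 with the agonist and 110 ± 1.36 with retinoic acid alone. For Nkx6-1 they were Neurog2 (0.994), Rgs4 (0.993), a regulator of G-protein signalling, and Nefm (0.993), another neurofilament gene. These values are set largely by the gap between the groups, and after each group's mean was taken off they were 0.773, 0.672 and 0.771 for the first 3 and 0.858, 0.584 and 0.594 for the others. The genes were picked by r over the same 8 arrays, so these remaining values are not independent of that choice. For Nkx2-1 the closest genes were Mip (0.982), Shpk (0.964) and Epb41l4b (0.960), and for the brighter Nkx2-4 probe set Zfp385c (0.958), Rptn (0.947) and Cntnap2 (0.939), and none of these 6 was called.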

How the data were processed

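Total RNA from 8 samples was hybridised to 1-colour Affymetrix Mouse430_2 arrays, per the file headers and labels. The authors deposited 1 linear intensity per probe set and array. Their probe summary, background correction and normalization are not given in the sources used here. Hybridisation day, chip lot and fluidics station were read from the instrument records, per the file headers. Groups and replicate numbers came from the titles.

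The deposited normalization was kept. Values became log2(intensity + 16), and all 45037 of 45101 probe sets that are not controls were tested, with no filter on low values, by limma 3.58.1 in R 4.3.3 (lmFit, eBayes with an intensity trend, two-sided, Benjamini-Hochberg over all). Of these probe sets 34945 name 1 gene, with symbols updated by gene identifier. Genes outside the members were represented by the probe set with the highest mean. Named genes were all member probe sets, called genes of the lists, others with a known link to a member, nearest measured neighbours and the 3 genes most alike. Foxa1, Shh, Gli1, Mnx1, Isl2 and Lhx3 were added after their values were seen. The members and lists were chosen with earlier results of these data known. Alternatives were other scalings, added constants, filters, variance settings, batch terms and leaving out each array. Summaries used pandas 2.3.3 under Python 3.11.15, and plots matplotlib 3.10.9.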

Additional observations from a re-analysis of the deposited data

Results flagged for a closer look

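Of 110 groups of 4 arrays that stand behind the named probe sets, 10 held an array far from the other 3 by Dixon's ratio of gap to range, which chance alone exceeds in about 5% of groups. The brighter Nkx2-4 probe set had a low agonist replicate 7 at 15.2 (ratio 0.863), and a high retinoic acid replicate 1 at 27.8 (ratio 0.926). Agonist replicate 7 also stood apart for Nkx2-3 at 70.9 (0.907), for Tle3 at 141 (0.892) and for Lhx4 at 16.8 (0.927). Agonist replicate 6 was high for Lhx3 at 36.1 (0.980). Nkx3-2 had a high agonist replicate 6 at 15.3 (0.878) and a high retinoic acid replicate 4 at 8.92 (0.976). In the retinoic acid group Pax6 was high in replicate 4 at 49.8 (0.845) and Inpp5a was low in replicate 3 at 17.7 (0.843). Neither Nkx2-9 nor Nkx6-1 had such an array.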

How the results depend on the processing

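Nkx2-9 and Nkx6-1 were called higher in every alternative with a test. The other 5 member probe sets were not called by limma wherever they were tested. Nkx2-2, Nkx6-2 and the dimmer Nkx2-4 probe set were removed by the filters at the 40th and 60th percentile. The brighter Nkx2-4 probe set was removed by the filter at the 60th percentile alone. The filters add no support to these calls, since Nkx2-9 and Nkx6-1 pass a filter through the agonist arrays. Station 1 alone adds none, since it holds 1 agonist array. On the second day alone station and group cannot be told apart, so its calls do not separate agonist from station. The number of probe sets called was 470 in the main setting, 184 without an intensity trend, 264 on the second hybridisation day alone, 90 on fluidics station 1 alone, and 293 to 583 when 1 array was left out, lowest without agonist replicate 6. With a filter at the 60th percentile, which removes dim genes, calls were 2 among genes of neurons and 2 among cross-repressed genes. The co-repressor call was 0 with centred arrays, without an intensity trend, on the second day alone and on station 1 alone, and 0 to 1 with 1 array left out. The signs that turned under alternatives with a test were of changes near 0 that were not called there. On station 1 alone this held for Nkx6-2 (-0.041), the brighter Nkx2-4 probe set (0.052), Nkx1-2 (-0.045), Nkx2-3 (-0.061), Nkx3-2 (-0.020) and Foxa1 (0.13). Without retinoic acid replicate 1 it held for the dimmer Nkx2-4 probe set (-0.030), the brighter Nkx2-4 probe set (0.014) and Nkx1-2 (-0.021), without retinoic acid replicate 2 for Gata3 (-0.070), and without retinoic acid replicate 4 for Pax1 (-0.0022) and Nkx2-3 (-0.056). Without agonist replicate 6 it held for Pax9 (0.012), and without agonist replicate 7 for the brighter Nkx2-4 probe set (0.022) and Nkx2-3 (-0.065). The signs of Foxa1, Shh and Mnx1 also turned with 1 array left out, as their ranges below show. With array weights Nkx2-3 was at -0.0014, and on the second day alone the dimmer Nkx2-4 probe set was at -0.075, Foxa1 at 0.012 and Mnx1 at 0.13. With any 1 array left out, log2 fold changes ran from -0.030 to 0.22 for the dimmer and -0.090 to 0.022 for the brighter Nkx2-4 probe set, -0.0022 to 0.34 for Pax1, -0.11 to 0.012 for Pax9, -0.021 to 0.24 for Nkx1-2, -0.065 to 0.081 for Nkx2-3, -0.070 to 0.19 for Gata3, -0.092 to 0.076 for Foxa1, -0.019 to 0.21 for Shh and -0.076 to 0.062 for Mnx1. On the first hybridisation day, with 1 array a group and no test, signs also turned for Nkx6-2 (-0.025), Mbip (-0.013), Pax9 (0.010), Cds1 (0.085), Nkx2-3 (-0.011), Nkx2-5 (-0.27) and Gata3 (-0.11). The causes were not tested. No paired analysis was possible because the groups share no replicate number. Low signal limits Nkx2-2, Nkx6-2 and the dimmer Nkx2-4 probe set, whose mean log2 values lay under the 40th percentile.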

Other observations

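Several genes named above have further probe sets. The other Isl1 probe set had 142 ± 5.29 with the agonist and 8.77 ± 4.92 with retinoic acid alone (SD, n = 4 each), a log2 fold change of 2.70 (limma adjusted p = 1.62e-11). Of 4 other Pax6 probe sets 2 fell, by 0.97 and 1.07 on the log2 scale (limma adjusted p = 2.64e-04 and 4.95e-05), and the other two, both dim, did not pass (adjusted p = 0.617 and 0.990). Of 2 other Neurod4 probe sets 1 rose by 1.18 (limma adjusted p = 2.11e-05) and the other, at 0.56, did not pass (adjusted p = 0.0603). Of 2 other Ptch1 probe sets 1 rose by 0.81 (limma adjusted p = 4.28e-04) and the other, at 0.57, did not pass (adjusted p = 0.0601). The groups did not overlap for any of these Neurod4 and Ptch1 probe sets. The other Msx2 probe set changed by 0.035 (limma adjusted p = 0.972) and the other Lhx4 probe set, dim, by -0.069 (adjusted p = 0.945). Other Tle3 probe sets changed by 0.31, 0.35 and -0.10. Other Tle4 probe sets changed by -0.072 and -0.46, and the other Neurog1 probe set by -0.26. None of the other Msx2, Lhx4, Tle3, Tle4 and Neurog1 probe sets passed the limma test, and the groups overlapped for each. The other Sim1 probe set changed by 0.16 in groups that did not overlap (limma adjusted p = 0.775). Other Nkx1-2 probe sets changed by 0.39 and -0.24 (limma adjusted p = 0.311 and 0.819).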
